A study of Mus musculus with 6 samples.

Results

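The genes described here are Hvcn1, which encodes the voltage-gated proton channel, and 5 genes of the phagocyte NADPH oxidase, namely Cybb, Cyba, Ncf1, Ncf4 and Rac2. They are 6 of the 38926 genes in the deposited expression table, and all 6 have a row in it. They were chosen by name, with earlier results of the same comparison known, so their values in that comparison are given as a description, with no p-value, and the number of them called is printed only beside the share of all genes called. The RNA came from LSK cells of mice. These are the bone marrow fraction that lacks lineage markers, carries Sca-1 and Kit on its surface, and contains the blood stem cells and multipotent progenitors. All mice were wild type C57BL/6, aged 8 to 12 weeks, and the cells came from femur and tibia. One group received DMSO, the solvent, and the other haloperidol, a dopamine receptor blocker used against psychosis, by injection on 3 days in a row, and the agent stayed with the cells through sorting. Each group has 3 libraries, called replicates 1 to 3 as labelled, and the sources used here give neither the dose and route nor the number of mice per library.

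The phagocyte NADPH oxidase moves electrons from cytosolic NADPH across a membrane to oxygen and so makes superoxide. Its catalytic core is the membrane pair gp91phox (Cybb) and p22phox (Cyba). Cytosolic subunits, among them the organiser p47phox (Ncf1) and p40phox (Ncf4), dock onto this pair on activation, together with a Rac GTPase, which in blood cells is mainly Rac2. Electron transfer leaves negative charge outside and protons inside, and the Hvcn1 channel lets protons follow, which balances the charge. Neutrophils, monocytes and B cells are known for the oxidase and the channel, and blood stem cells are usually described as low in reactive oxygen.

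Promoter sequences of 3 of the 6 genes, Cybb, Cyba and Ncf1, were in the RefSeq table used (build GRCm38.p6), and these 3 are shown. Whether these sequences bear on the levels of the genes was not tested. All 3 genes are on the minus strand. The lines below run 5′ to 3′ from 250 bases before the start site to 30 bases after it, and capitals mark matches to any of the motifs named after them. They cover chrX:9469295-9469574, chr8:122432911-122433190 and chr5:134229596-134229875. The RefSeq start site of Cybb lies 18.4 kb inside the gene as GENCODE draws it, whereas those of Cyba and Ncf1 lie within 10 bases of the gene's 5′ end.
Cybb: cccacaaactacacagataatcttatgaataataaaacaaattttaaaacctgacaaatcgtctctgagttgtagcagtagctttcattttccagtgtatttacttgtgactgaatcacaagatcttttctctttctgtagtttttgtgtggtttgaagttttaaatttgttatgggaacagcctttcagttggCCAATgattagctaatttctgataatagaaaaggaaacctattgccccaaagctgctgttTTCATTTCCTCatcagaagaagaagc
Cyba: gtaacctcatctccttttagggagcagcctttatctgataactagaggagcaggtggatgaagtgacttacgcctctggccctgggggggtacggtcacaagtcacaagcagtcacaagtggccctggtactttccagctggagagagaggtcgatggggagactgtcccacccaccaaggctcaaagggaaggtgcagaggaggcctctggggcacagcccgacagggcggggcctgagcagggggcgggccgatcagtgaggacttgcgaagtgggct
Ncf1: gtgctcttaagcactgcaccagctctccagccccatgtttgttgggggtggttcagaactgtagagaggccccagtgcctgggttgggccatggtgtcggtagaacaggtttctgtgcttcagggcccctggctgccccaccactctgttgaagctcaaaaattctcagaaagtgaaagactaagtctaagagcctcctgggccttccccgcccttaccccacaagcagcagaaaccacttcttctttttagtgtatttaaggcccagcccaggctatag
The motifs searched on both strands of the whole window of 300 bases were GAGGAA (the core bound by the ETS factor PU.1), TTGCNNAA (C/EBP), GGAANNGAA (a composite of ETS and IRF sites), TATAAA (the TATA box) and CCAAT. The Cybb window held 1 match to GAGGAA on the opposite strand from position 10 after the start site, which overlaps its 1 match to GGAANNGAA from position 5, and 1 CCAAT from position -56. None of the 5 motifs occurred in the Cyba or Ncf1 windows. Of 32544 promoters of the same length, 28.1% held GAGGAA, 10.8% TTGCNNAA, 8.22% GGAANNGAA, 13.6% TATAAA and 37.4% CCAAT. The Cybb window had 35.3% G and C, the Cyba window 60.7% and the Ncf1 window 54.0%, beside a median of 53.0% over those promoters.

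Levels are in FPKM, fragments scaled to gene length and sequencing depth. Gene reads per library, worked out from the spacing of low FPKM values, numbered 8523556 to 8969032. Where a gene had 0 reads, the upper limit on its level was between 0.334 and 0.352 RPM, that is reads scaled by the library total, and it covers counting error only. The gate genes Kit (87.8 ± 7.38 against 81.0 ± 9.78 FPKM, mean ± SD, n = 3 each) and Ly6a, which encodes Sca-1 (136 ± 10.2 against 138 ± 10.5 FPKM), were abundant in every library. Of 11436 genes tested, 2807 (24.5%) differed between the groups at an adjusted p below 0.05 in limma, with 11.5% higher and 13.0% lower with haloperidol. Without DMSO replicate 2, 1814 genes differed. The labels give no sort or sequencing date, so the treatment and any batch that split as the groups do cannot be told apart. They also do not say that libraries came from separate mice, so p-values rest on the spread among these libraries, which may be technical. In such bulk samples fewer cells of a type and less RNA per cell cannot be told apart.

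Hvcn1 (ENSMUSG00000064267.13, GRCm38 chromosome 5, 122206804 to 122242297, plus strand) was the gene among the 6 with the largest difference. It stood at 7.77, 8.98 and 10.2 FPKM in DMSO replicates 1, 2 and 3 and at 34.8, 32.6 and 45.7 FPKM in haloperidol replicates 1, 2 and 3. Every haloperidol library was above every DMSO library, and replicate 3 was the highest of its group in both. The means were 8.99 ± 1.22 and 37.7 ± 7.02 FPKM (n = 3 each), a ratio of 4.20 and a difference of 1.95 on the log2(FPKM + 1) scale (SE 0.13), the 6th highest of the 11436 genes tested. In reads, the gene had 247 to 328 per DMSO library and 1033 to 1451 per haloperidol library, so counting error is small beside the gap.

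The last part of Hvcn1 lies over Tctn1, a ciliary transition zone gene on the minus strand, and 1574 of the 3563 exonic bases of Hvcn1 are also Tctn1 exon in the GENCODE annotation. The libraries do not keep the strand, so reads from these bases cannot be assigned by strand. Tctn1 itself was low, with DMSO libraries averaging 1.23 ± 0.190 FPKM and haloperidol libraries 1.81 ± 0.0862 FPKM (n = 3 each). Its reads summed to 159 over the DMSO and 232 over the haloperidol libraries, beside 853 and 3551 for Hvcn1. Other voltage-sensor proteins without a pore were nearly absent: Tpte, a voltage-sensing phosphatase relative, was at 0 in all 6 libraries, and Tmem266 (listed under the older symbol AI118078) had at most 5 reads in any library.

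The membrane pair of the oxidase was very unequal. Cyba (chromosome 8, 122424776 to 122432930), the p22phox subunit that stabilises gp91phox and its relatives, was at 184.5, 179.7 and 189.9 FPKM in the DMSO libraries and at 146.9, 147.8 and 151.5 FPKM in the haloperidol libraries. All 3 haloperidol values lay below all 3 DMSO values, with means of 148.7 ± 2.45 and 184.7 ± 5.10 FPKM (n = 3 each), a difference of -0.31 (log2 scale, SE 0.04). Cybb (chromosome X, 9435252 to 9487771), the electron-carrying gp91phox subunit, was at 0.502, 0.535 and 0.477 FPKM in DMSO and at 0.640, 0.620 and 0.986 FPKM in haloperidol. These values stand for 26, 27 and 25 reads and for 32, 32 and 51 reads. The groups did not overlap, but for a single library the exact Poisson 95% interval of 27 reads runs from 17.8 to 39.3 and that of 32 reads from 21.9 to 45.2, counting error only. Cybb was below the mean of 1 FPKM that a gene needed to be tested. Its group means were 0.505 ± 0.0291 and 0.749 ± 0.206 FPKM (n = 3 each), a ratio of 1.48. Without haloperidol replicate 3 its difference went from 0.21 to 0.12 on the log2(FPKM + 1) scale. The ratio of Cyba to Cybb was 367 ± 31.1 in DMSO and 207 ± 46.6 in haloperidol (n = 3 each), and 267.8 ± 22.7 and 151.2 ± 34.0 with the exonic lengths of GENCODE.

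Among the cytosolic subunits, Ncf1 was lower with haloperidol and Ncf4 was not. Ncf1 (chromosome 5, 134220053 to 134229625), the organiser that carries the other cytosolic subunits to the membrane, was at 44.4, 43.4 and 42.3 FPKM in DMSO and at 25.9, 25.2 and 23.0 FPKM in haloperidol. The groups were far apart, with means of 43.4 ± 1.07 and 24.7 ± 1.53 FPKM (n = 3 each), a ratio of DMSO to haloperidol of 1.76 and a difference of -0.79 (SE 0.06). It shares 408 exonic bases with Gtf2ird2 on the plus strand, a gene at 5.35 ± 0.497 and 4.71 ± 0.0862 FPKM. Ncf4 (chromosome 15, 78244801 to 78262580), whose p40phox protein binds a phosphoinositide of phagosome membranes, was at 32.0, 35.7 and 36.4 FPKM in DMSO and at 35.6, 33.5 and 34.6 FPKM in haloperidol. Its groups overlapped, and its difference on the log2 scale was -0.0036 with an SE of 0.06.

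Rac2 (chromosome 15, 78559167 to 78572783), the Rac GTPase of blood cells, was at 222.9, 220.0 and 233.8 FPKM in DMSO and at 204.1, 204.4 and 205.9 FPKM in haloperidol. Each haloperidol library was below each DMSO library, and the difference was small at -0.14 (SE 0.04), with means of 225.6 ± 7.31 and 204.8 ± 0.997 FPKM (n = 3 each). Its widely expressed relative Rac1, which can also serve the oxidase, averaged 197.9 ± 0.932 FPKM in DMSO libraries and 206.7 ± 5.28 FPKM in haloperidol libraries (n = 3 each) and did not pass the test (difference 0.06, SE 0.04, limma adjusted p = 0.33). The coding sequences of Rac genes are close to each other, so reads may be split between them, and Rac1 in GENCODE shares 2309 exonic bases with Daglb on the other strand.

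**Figure D1:**
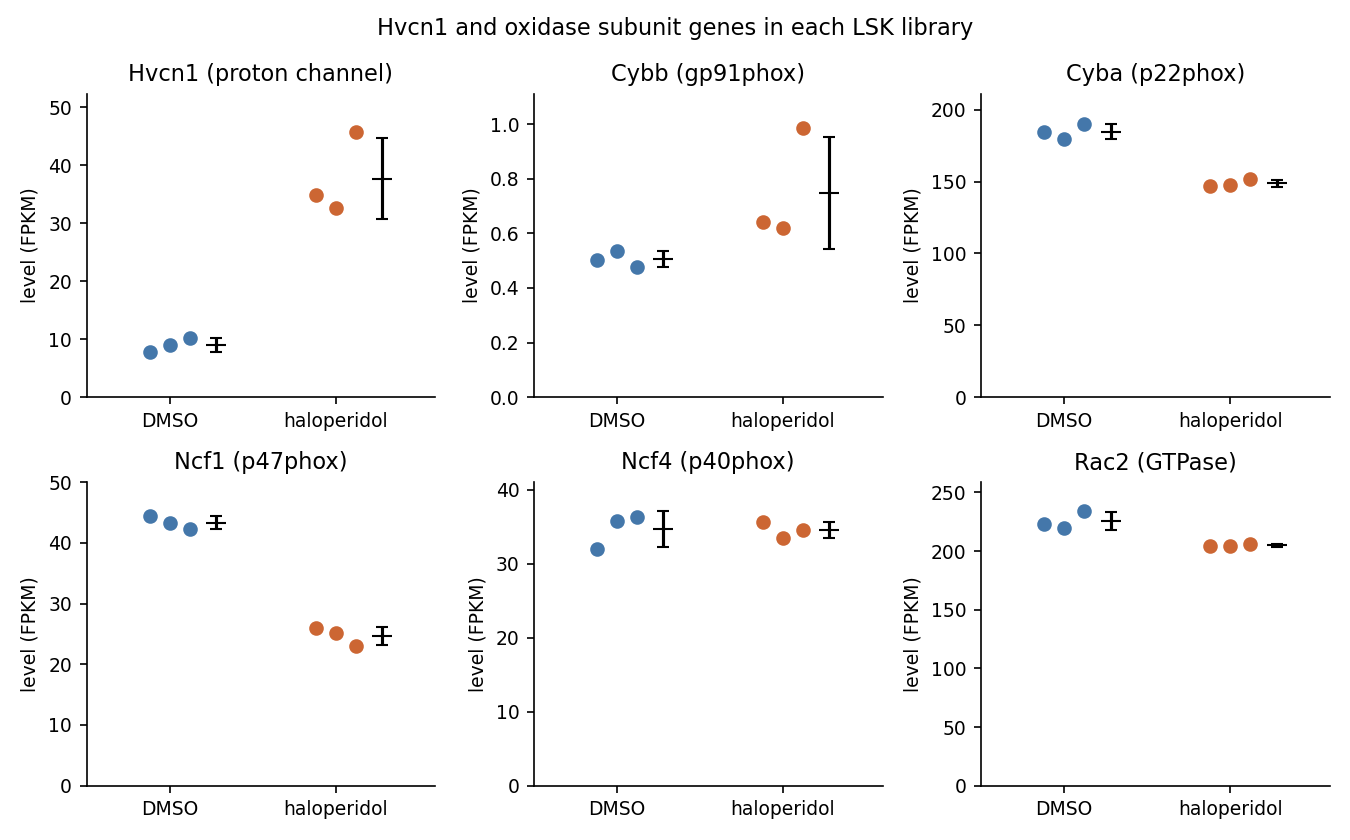
Level in FPKM (vertical axis, from 0) of the 6 genes in each of the 3 DMSO and 3 haloperidol libraries, with replicates 1 to 3 from left to right. Bars beside the points give the mean and SD; Hvcn1 averages 8.99 FPKM in DMSO and 37.7 FPKM in haloperidol, Ncf1 and Cyba are lower with haloperidol, Ncf4 overlaps, and Cybb stays below 1 FPKM throughout.

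FPKM is scaled by gene length, so the levels of the subunits can be set against each other, using the gene lengths that the deposited values imply. In GENCODE 1574 exonic bases of Hvcn1, 2309 of Rac1 and 408 of Ncf1 are shared with another gene. How reads from such bases were counted is not known, so the levels of these genes beside the others are uncertain. In DMSO the order of mean levels was Rac2, Rac1, Cyba, Ncf1, Ncf4, Hvcn1 and Cybb, and no neighbours in this order overlapped between libraries. Hvcn1 was then 3.86 times below Ncf4 and 17.8 times above Cybb. In haloperidol the order was Rac1, Rac2, Cyba, Hvcn1, Ncf4, Ncf1 and Cybb. There Hvcn1 overlapped Ncf4 (32.6 to 45.7 against 33.5 to 35.6 FPKM), as did Rac1 and Rac2, and Ncf1 was below both Hvcn1 and Ncf4 in every library. Cybb stayed last, 33.0 times below Ncf1. The implied lengths of Rac1 (2652 bases) and Cyba (758 bases) are shorter than their exonic lengths in GENCODE (4496 and 1039 bases). With GENCODE lengths, an alternative added after the data were seen, Rac2 led in both groups without overlap, 1.64 times above Cyba in DMSO and 1.64 times above Rac1 in haloperidol. Cyba then stood above Rac1 in DMSO and below it in haloperidol, and the places of Ncf1, Ncf4, Hvcn1 and Cybb were the same.

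**Figure D2:**
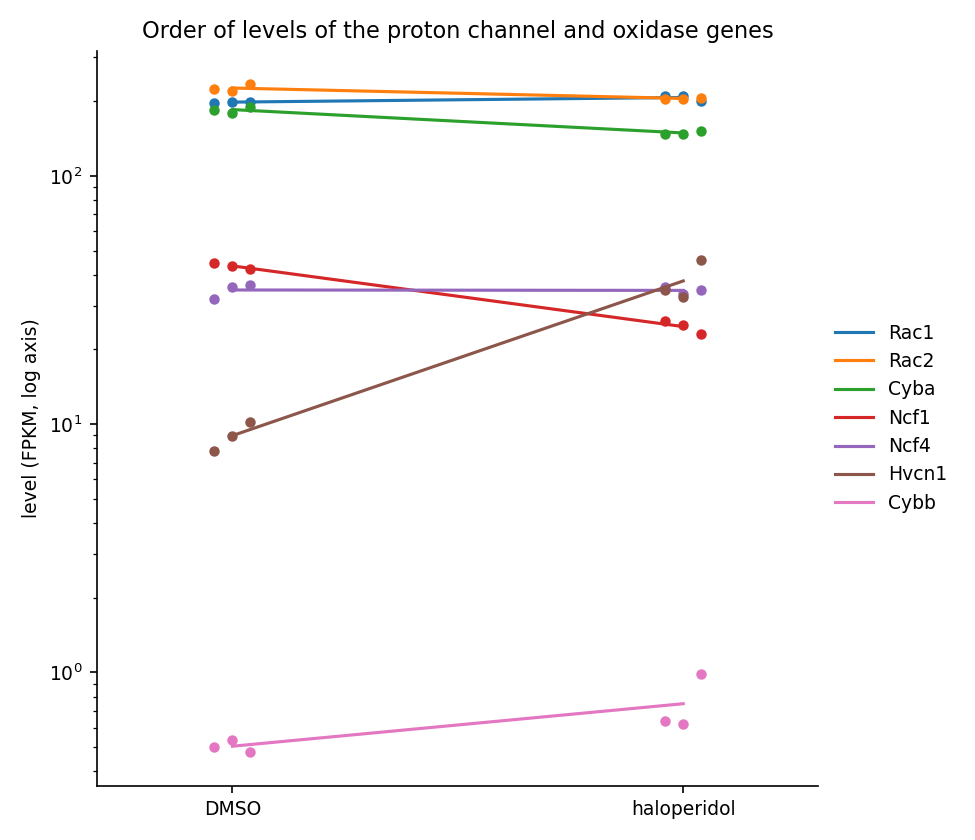
Mean level (lines) and library values (points) in FPKM on a log axis for the 6 genes and for Rac1 in DMSO and haloperidol, n = 3 each. Hvcn1 crosses from below Ncf1 and Ncf4 to the range of Ncf4, while Cybb lies below the rest by more than 10-fold in both groups.

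Ratios within a library do not depend on how libraries were scaled to each other. Their size does depend on the gene lengths and on how reads from shared exons were counted. Hvcn1 over Ncf4 was 0.243, 0.252 and 0.281 in the DMSO libraries and 0.978, 0.973 and 1.32 in the haloperidol libraries. Hvcn1 over Cyba went from a mean of 0.0486 ± 0.00593 to 0.253 ± 0.0429 and Hvcn1 over Ncf1 from 0.208 ± 0.0332 to 1.54 ± 0.388 (n = 3 each). Ncf1 over Ncf4 was 1.39, 1.21 and 1.16 in DMSO and 0.728, 0.752 and 0.665 in haloperidol. Ncf1 was thus above Ncf4 in each DMSO library and below it in each haloperidol library. Rac2 over Rac1 was between 1.11 and 1.183 in DMSO and between 0.972 and 1.03 in haloperidol. With GENCODE lengths the mean of this ratio was 1.89 ± 0.0652 in DMSO and 1.645 ± 0.0507 in haloperidol (n = 3 each), so which of these genes is the more abundant in haloperidol depends on the length used.

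**Figure D3:**
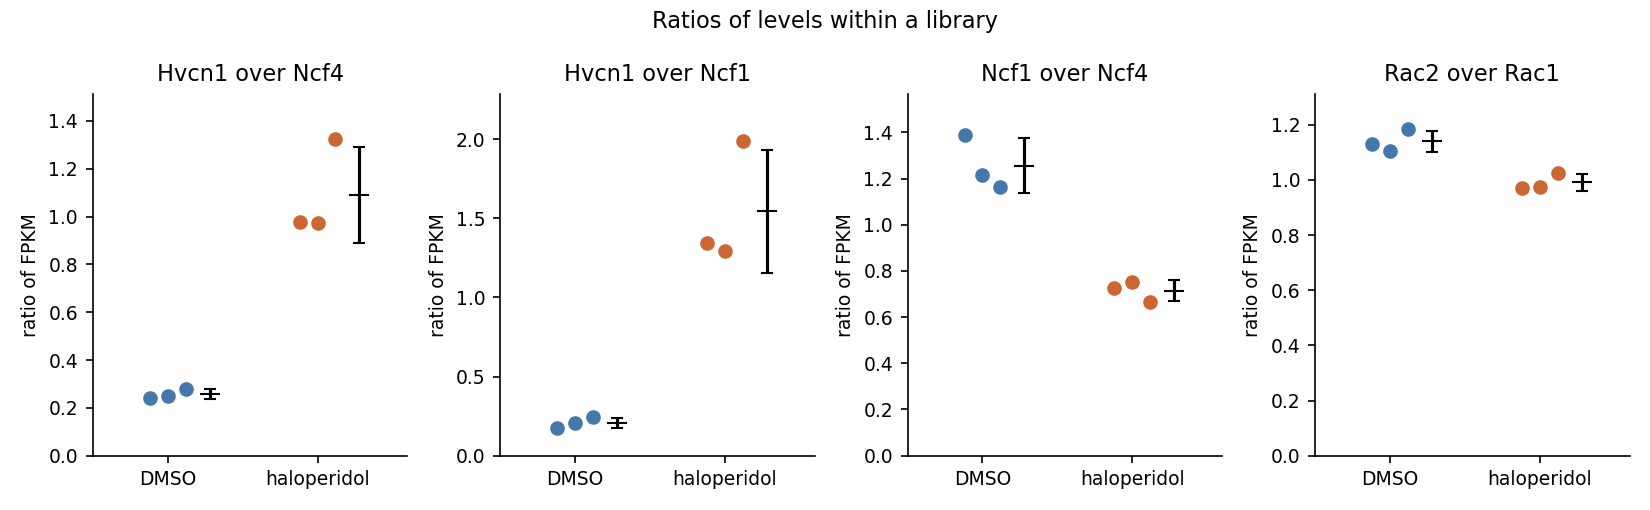
Ratio of FPKM between 2 genes of the same library (vertical axis, from 0) in 3 DMSO and 3 haloperidol libraries, with mean and SD. The groups are apart in all 4 panels, upward with haloperidol for Hvcn1 over Ncf4 and Hvcn1 over Ncf1 and downward for Ncf1 over Ncf4 and Rac2 over Rac1.

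Of the 6 genes, 5 reached the mean of 1 FPKM needed for the test. Of these 5, 1 was called higher (Hvcn1) and 2 lower (Cyba and Ncf1), where 24.5% of all genes tested were called, and 4 had groups that did not overlap, where 43.1% of all genes tested did not. The median difference of the 5 was -0.14 on the log2 scale, beside 0.0022 over all genes tested. Nothing is read from these counts, since the genes were picked with the comparison in view.

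Other genes of the pathway were taken from 8 lists of textbook genes and tested within all genes. Of 104 such genes in the table, 82 reached the level for a test, and of these 9 rose (10.98%, beside 11.5% of all genes tested) and 23 fell (28.05%, beside 13.0%), while 50 did not pass. Their median difference was -0.02, beside 0.0022 over all genes tested. The lists were drawn up with earlier results of these data known.

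Other parts of the oxidase family did not pass in either direction in limma (0 of 3 tested, namely Rac1, Rap1a and Noxa1, which activates a related oxidase). Of these 3, 0 were below 0.05 before adjustment and 0 were called by limma-voom on recovered reads. Noxa1 was low, with means of 1.09 ± 0.117 and 1.36 ± 0.208 FPKM (n = 3 each, limma adjusted p = 0.388). Rap1a, a small GTPase found with the membrane pair, was at 33.2 ± 2.29 and 36.2 ± 2.57 FPKM (n = 3 each, limma adjusted p = 0.246). Nox3, Duox2 and Duoxa2 had 0 reads in all 6 libraries, and the remaining Nox and Duox genes on the list were below the level for a test. No other gp91phox relative on the list therefore reached 1 FPKM.

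Of 17 genes of oxidase activation tested, 7 fell and 1 rose, beside 13.0% and 11.5% of all genes tested. Vav1, which loads Rac with GTP, was at 91.0, 88.6 and 92.2 FPKM in DMSO and at 68.8, 71.1 and 65.1 FPKM in haloperidol, and its difference was -0.40 (SE 0.05, limma adjusted p = 0.00107). Prkcd, a protein kinase C that phosphorylates p47phox, fell from 38.3 ± 0.277 to 30.1 ± 0.973 FPKM (limma adjusted p = 0.00238). Pik3cd, a leukocyte phosphoinositide 3-kinase catalytic subunit, fell from 23.3 ± 2.21 to 16.1 ± 1.69 FPKM (limma adjusted p = 0.00564). Arhgdib, the blood cell GDI that holds Rac in the cytosol, was the most abundant at 699.7 ± 13.9 and 631.8 ± 0.173 FPKM, a difference of -0.15 whose call (limma adjusted p = 0.0357) ended with any 1 library left out. That call also ended with no filter on low values and with upper quartile scaling.

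Of 10 receptor genes of phagocytes tested, 3 rose and 0 fell in limma, beside 11.5% and 13.0% of all genes tested. Before adjustment 1 was below 0.05 in the lower direction, Fcer1g, which limma-voom on recovered reads also called. Csf2rb, the shared beta chain of the receptors for GM-CSF, IL-3 and IL-5, was at 7.53, 8.84 and 7.10 FPKM in DMSO and at 17.2, 14.1 and 21.0 FPKM in haloperidol (difference 1.05, SE 0.14, limma adjusted p = 0.0012). Its near copy Csf2rb2, which lies beside it and could share its reads, was at 0.574 to 0.705 FPKM in DMSO and at 0.976 to 1.63 FPKM in haloperidol. The Fc receptor genes Fcgr2b and Fcgr3, an inhibitory and an activating receptor for immunoglobulin G, rose from 3.07 ± 0.254 to 5.75 ± 0.603 and from 1.58 ± 0.324 to 2.97 ± 0.408 FPKM (limma adjusted p = 0.00168 and 0.0124). Fcer1g, the signalling chain that Fcgr3 needs, was at 73.2 ± 5.22 and 59.6 ± 9.52 FPKM and did not pass (limma adjusted p = 0.073, from 0.0159 to 0.183 over the other settings).

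Transcription factors known to act on oxidase genes fell or did not pass in limma, with 5 lower and 0 higher of 10 tested. None was higher at an unadjusted p below 0.05 or in limma-voom on recovered reads either. Spi1, which encodes the ETS factor PU.1, was at 150, 142 and 140 FPKM in DMSO and at 102, 94.8 and 110 FPKM in haloperidol, a difference of -0.49 (SE 0.06, limma adjusted p = 0.0011). Irf8, an interferon regulatory factor that pairs with PU.1, was at 13.2, 13.1 and 12.8 FPKM in DMSO and at 7.79, 5.98 and 6.91 FPKM in haloperidol, a difference of -0.84 (SE 0.09, limma adjusted p = 0.000554). For both genes the 2 groups were well separated and lower with haloperidol, as for Ncf1, Cyba and, by less, Rac2. Hvcn1 was higher, as was Cybb (0.505 ± 0.0291 and 0.749 ± 0.206 FPKM), which was too low to be tested, and Ncf4 overlapped. A link between these factors and the oxidase genes was not tested. Meis1, a homeobox partner of Hox proteins in stem cells, fell from 27.7 ± 0.897 to 18.8 ± 1.28 FPKM (limma adjusted p = 0.000896). Cebpb, the most abundant on the list, was at 1194 ± 44.2 and 1200 ± 147 FPKM (limma adjusted p = 0.998).

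Genes of proton and ion transport moved in both directions. Of 13 tested, 2 were higher (15.4%) and 3 lower (23.1%), beside 11.5% and 13.0% of all genes tested. None of them rose as Hvcn1 did. The higher of the 2 rises was 0.42 on the log2 scale. It was that of Ostm1, the partner of a lysosomal chloride exchanger, singled out after its value was seen. The call of Ostm1 (limma adjusted p = 0.017) ended without haloperidol replicate 2 and with no filter on low values (limma adjusted p = 0.0527). Kcnn4, a calcium-activated potassium channel, was at 112, 117 and 123 FPKM in DMSO and at 74.7, 69.6 and 73.6 FPKM in haloperidol (difference -0.68, SE 0.05, limma adjusted p = 0.000131). Car2, the carbonic anhydrase that makes protons and bicarbonate from carbon dioxide, was by far the most abundant and fell from 843 ± 29.5 to 561 ± 25.2 FPKM (limma adjusted p = 0.000224). Slc4a2, an exchanger of chloride for bicarbonate, fell from 4.48 ± 0.178 to 3.12 ± 0.272 FPKM (limma adjusted p = 0.014).

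Of 9 genes tested that supply NADPH, 2 rose (22.2%) and 1 fell (11.1%), beside 11.5% and 13.0% of all genes tested: Pgls, an enzyme of the pentose phosphate pathway, went from 40.5 ± 1.27 to 49.4 ± 2.36 FPKM (limma adjusted p = 0.00801), and Idh1, a cytosolic isocitrate dehydrogenase, from 26.2 ± 1.95 to 20.2 ± 1.14 FPKM (limma adjusted p = 0.00862). Taldo1, also of the pentose phosphate pathway, had a difference of 0.15 whose call (limma adjusted p = 0.0321) ended with any 1 library left out. That call also ended with rescaling to a common sum and with quantile normalization. Of 13 genes tested that handle superoxide and peroxide, 1 rose and 1 fell (7.69% each). Sod2, the mitochondrial superoxide dismutase, rose from 29.9 ± 1.53 to 36.4 ± 0.569 FPKM (limma adjusted p = 0.00897). Prdx2, a peroxidase, was at 129 ± 0.566 and 115 ± 1.58 FPKM, a difference of -0.17 whose call (limma adjusted p = 0.0208) ended without DMSO replicate 2 or 3 or haloperidol replicate 1 or 2. Gpx1, the most abundant gene of this list, was at 2105 ± 22.1 and 2008 ± 40.4 FPKM, and neither it nor Txn1 passed (limma adjusted p = 0.309 and 0.0726).

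The proton channel is also known from B cells, where it sits with the B cell receptor. Genes of that receptor and its signalling fell in 6 of 7 cases tested (85.7%, beside 13.0% of all genes tested). Of these 7, 0 rose in limma, at an unadjusted p below 0.05 or in limma-voom on recovered reads. Ighm, the immunoglobulin M heavy chain, was at 278, 241 and 268 FPKM in DMSO and at 100.1, 115 and 90.3 FPKM in haloperidol (difference -1.36, SE 0.09, limma adjusted p = 5.73e-05). Cd79b, which carries the receptor's signal into the cell, and Ptpn6, a phosphatase that damps it, fell from 32.2 ± 1.12 to 22.8 ± 1.24 and from 163 ± 8.51 to 116 ± 3.03 FPKM (limma adjusted p = 0.00108 and 0.000547). Immunoglobulin genes share sequence, so the Ighm level is uncertain.

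**Figure D4:**
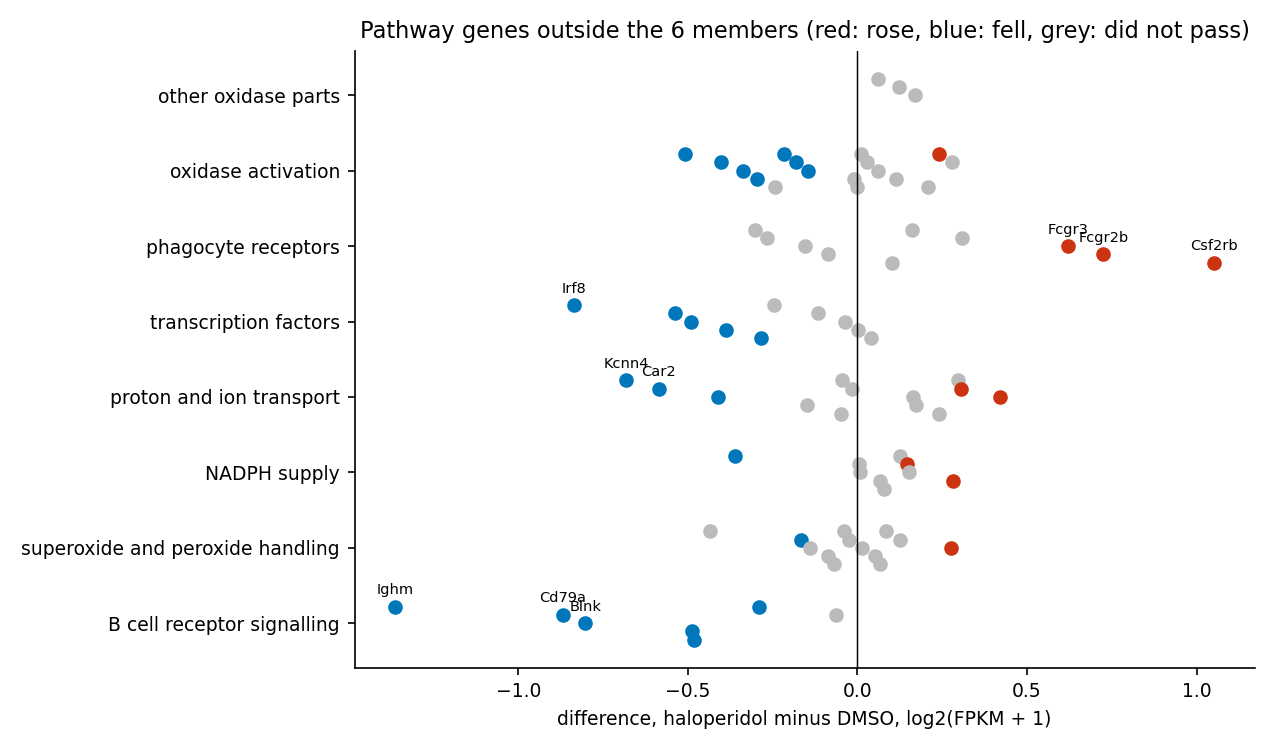
Difference between groups on the log2(FPKM + 1) scale (horizontal axis, haloperidol minus DMSO) for each tested gene of the 8 pathway lists (rows), from 3 libraries a group. Red points rose, blue points fell and grey points did not pass at an adjusted p of 0.05 in limma; names mark differences beyond 0.55 of called genes, from Ighm at -1.36 to Csf2rb at 1.05.

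Markers of the cells best known for the oxidase and the channel were measured beside these values. The summed level of 11 neutrophil markers was 167 to 283 FPKM in DMSO and 174 to 308 FPKM in haloperidol, with no marker at 0 in all libraries and 1 of 10 tested higher, the chemokine receptor gene Cxcr2, whose call ended without DMSO replicate 2 or haloperidol replicate 1 or 3. The summed level was highest in DMSO replicate 2 and haloperidol replicates 2 and 3. By replicate 1, 2 and 3 the sum was 167, 283 and 184 FPKM in DMSO and 174, 288 and 308 FPKM in haloperidol. Hvcn1 in the same order was at 7.77, 8.98 and 10.2 FPKM in DMSO and at 34.8, 32.6 and 45.7 FPKM in haloperidol. Cxcr2 itself was at 1.33, 1.06 and 1.28 FPKM in DMSO and at 2.33, 1.85 and 2.25 FPKM in haloperidol. The sum of 10 monocyte and macrophage markers was 86.6 to 101.2 FPKM in DMSO and 93.1 to 118 FPKM in haloperidol, with 0 of 4 tested called in limma (0 also before adjustment and in limma-voom), 4 of 10 below 1 FPKM in every library and none at 0 throughout. Most of this sum was Cd14, at 73.1 to 84.9 FPKM in DMSO and 78.9 to 101.8 FPKM in haloperidol. Ccr2, too low to be tested, was higher with haloperidol without overlap (0.60 ± 0.22 and 1.04 ± 0.30 FPKM, n = 3 each). The groups of every other marker on this list overlapped. The sum of 6 eosinophil markers was 54.4 to 85.9 and 14.1 to 78.5 FPKM, with 1 of 4 tested lower (3 in limma-voom) and none at 0 throughout. The sum of 9 B cell markers was 4.43 to 7.86 FPKM in DMSO and 1.12 to 1.67 FPKM in haloperidol without overlap. Of these markers 2 of 2 tested were lower and 7 of 9 were below 1 FPKM in every library. The sum of 6 dendritic cell markers was also lower, at 4.27 to 5.14 and 2.14 to 2.83 FPKM, with 1 of 1 tested lower, the chemokine receptor gene Ccr9 (3.62 ± 0.410 and 0.961 ± 0.367 FPKM, n = 3 each). Of the other dendritic cell markers 4 were below 1 FPKM in every library, and the integrin gene Itgax was higher without overlap, at 0.577 ± 0.0685 and 1.075 ± 0.114 FPKM. That of 7 T and NK cell markers overlapped, at 313 to 333 and 275 to 319 FPKM, with 0 of 2 tested called in limma (0 also before adjustment and in limma-voom) and Cd8a at 0 in all libraries. Nearly all of this sum was Nkg7, a cytotoxic granule gene, at 311 to 332 FPKM in DMSO and 272 to 317 FPKM in haloperidol, and 5 of the 7 were below 1 FPKM in every library. The 9 LSK genes summed to 1177 to 1217 FPKM in DMSO and 1053 to 1084 FPKM in haloperidol. Of 9 tested, 1 was higher and 4 lower, beside 11.5% and 13.0% of all genes tested. The part of these cells in the differences of Hvcn1, Cyba and Ncf1 was not tested.

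The genes whose pattern over the 6 libraries was most like that of Hvcn1 were ranked by Pearson's r on log2(FPKM + 1) among 10235 tested genes, as a description in which all points share the same libraries and group split. The top 5 were Etfb, an electron transfer flavoprotein subunit (r = 0.998), P2ry10, a receptor for lysophospholipids (0.997), the growth regulator Myc (0.997), the calcium-binding S100a6 (0.996) and the deubiquitinase Otud4 (0.996), and 30 genes reached 0.99. None of these 5 belongs to the oxidase or to ion transport lists. Those lists hold few of the 10235 genes ranked, so nothing is read from this. P2ry10 had means of 21.5 ± 1.65 and 40.6 ± 4.35 FPKM and Myc of 103 ± 3.49 and 143 ± 2.87 FPKM (n = 3 each), smaller differences than that of Hvcn1 in the same order of libraries. For Cybb the top 5 were Dclre1b, Il1rn, Kctd17, Crlf2 and Fam195b, with r from 0.991 to 0.995 and 6 genes at 0.99 or above. Each of these 5 was highest in haloperidol replicate 3, as Cybb was. Il1rn, the interleukin 1 receptor antagonist, was at 1.31, 1.16 and 4.45 FPKM in the haloperidol libraries.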

How the data were processed

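RNA of 3 DMSO and 3 haloperidol LSK samples was made into cDNA with a SMART-Seq kit and into libraries with a Nextera kit, per the labels' protocols. Per the submitters' processing notes, the build was mm10 and the tools were TopHat2 (2.1.1), DESeq2 (1.18.1), HTSeq (0.6.1) and bcl2fastq (2.19.1.403). The sources used here give no annotation release or counting options. FPKM were deposited by the authors for 38926 genes, with 0 columns of other samples.

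Whole reads were recovered from the FPKM steps of low genes (100% of genes within 0.001 reads). The deposited scale between libraries equals that of median-of-ratios size factors. Genes with a mean of at least 1 FPKM were tested across all 11436 with limma 3.58.1 (R 4.3.3) on log2(FPKM + 1), two-sided and without covariates, with a variance trend and Benjamini-Hochberg adjustment at 0.05, after a trial on simulated data. Fold changes on this scale understate those of low genes.

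The members, the gene lists and the rules were chosen with earlier results of these data known. Named from each list were the 3 genes with the smallest p and the most abundant in DMSO, besides Rac1, Kit, Ly6a and the 5 genes most like Hvcn1 and Cybb, leaving out predicted genes, clone names and small RNA genes. Cybc1 and Siglecf were not analysed here, and 1 other listed gene is not reported here. Locations are from GENCODE M21 on GRCm38, which is mm10. Other settings were pseudocounts, filters, scalings, a robust prior, sample weights, a replicate block, each library left out and, added after the data were seen, GENCODE exonic lengths for levels and ratios, and limma-voom on recovered reads, which called 3333 genes.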

Additional observations from a re-analysis of the deposited data

How the results depend on the processing

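Over 17 other settings the differences of Hvcn1 (1.80 to 2.06), Cyba (-0.33 to -0.29), Ncf1 (-0.82 to -0.74), Rac2 (-0.17 to -0.11) and Cybb (0.12 to 0.53) kept their sign, and that of Ncf4 stayed between -0.06 and 0.03. That of Cybb was 0.46 with a pseudocount of 0.1, 0.53 with 0.01 and 0.53 with limma-voom on recovered reads, and that of Rac2 was -0.17 with quantile normalization. Leaving out 1 library gave 1814 to 2160 genes differing. Pathway genes that rose numbered 14 with limma-voom on recovered reads, against 9, and otherwise 6 to 12, and those that fell 16 to 25. With the replicate number as a block 2552 genes differed. Same-numbered libraries hardly deviated together (correlations of 0.009, 0.055 and 0.02), and not every library correlated best with its own number. No pairing by number was visible, but these correlations cannot show that the libraries were unpaired. Among the tested pathway genes named, leaving out Arhgdia, only Arhgdib and Taldo1 lost their call under the block, and only Fcer1g gained one. Depth limits Cybb, with 25 to 51 reads a library.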

Other observations

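The first tested protein-coding gene on each side of the 6 genes was looked up by position after their values had been seen. Of these 12 neighbours 3 were called (25%, beside 24.5% of all genes tested). Mvd, an enzyme of cholesterol synthesis that ends 0.671 kb upstream of Cyba on the same strand, fell from 4.65 ± 0.279 to 2.62 ± 0.440 FPKM (n = 3 each, limma adjusted p = 0.00451). Cyth4, an exchange factor for ARF GTPases 24.3 kb from Rac2, fell from 43.5 ± 1.47 to 25.8 ± 0.913 FPKM (limma adjusted p = 9.81e-05). Csf2rb lies 63.2 kb beyond Ncf4 and rose, while Ncf4 was at 34.7 ± 2.38 and 34.6 ± 1.05 FPKM. The phosphatase gene Ppp1cc, 31.5 kb before Hvcn1, was at 81.4 ± 1.75 and 88.4 ± 0.940 FPKM and did not pass (limma adjusted p = 0.0828). Neither Xk nor Dynlt3, on the sides of Cybb, passed (limma adjusted p = 0.735 and 0.355), nor did Zc3h18, Tctn1, Gtf2ird2, Gtf2i, Ift27 and C1qtnf6.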
